A study of Mus musculus with 12 samples.

Results

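The genes for beta-catenin, for the transcription factors that recruit it to DNA and for the feedback regulators of the WNT pathway were examined in the W-20 cell line, a line of mouse bone marrow stromal cells (BMSCs). The 10 genes, *Ctnnb1*, *Axin1*, *Axin2*, *Lef1*, *Tcf7*, *Tcf7l1*, *Tcf7l2*, *Nkd1*, *Nkd2* and *Apcdd1*, were taken by symbol from the 56980 genes of the count matrix. The RNA-Seq comprised 12 libraries in 4 groups of 3: unmodified (WT) cells with vehicle, WT cells with 50 nM PTH for 2 hours, and cells of the Y428F line with vehicle and with PTH in the same way. The vehicle was PBS. Y428F cells are W-20 cells that stably carry a plasmid for Flag-tagged YAP in which the tyrosine of the Y428F label is replaced by phenylalanine, and positive clones were selected with puromycin. The study's text names the sequenced line as YAP S381A/Y428F, in which a serine that is phosphorylated for YAP degradation is also replaced by alanine, whereas the library titles give Y428F only. The genotype label of the Y428F libraries reads WT, and groups were taken from the library titles. No line with an introduced YAP that lacks the Y428F change was analysed here, so both mutations, the introduced YAP and any other difference between the lines cannot be told apart. The labels do not say that replicates were separate cultures, so p-values measure the spread between these libraries, which may be technical.

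Beta-catenin has a role at cell contacts, where it links cadherins to the actin cytoskeleton, and a role in the nucleus as a coactivator. Without a WNT signal it is bound by a destruction complex built on AXIN and APC, phosphorylated and degraded, and with a WNT signal it accumulates and binds TCF/LEF factors on DNA. Active signaling also switches on inhibitors of the pathway, such as *Axin2*, *Nkd1* and *Apcdd1*, and in stromal cells of bone marrow it is known for favoring the osteoblast lineage over the adipocyte lineage. Beta-catenin is controlled mainly at the level of the protein, which was not measured here.

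TCF/LEF factors bind the letters CTTTGA, and *Lef1* and *Axin2* are well known as direct targets of the pathway, so the DNA before their start sites is shown first. RefSeq's promoter table (build GRCm38.p6) held 14 start sites of 8 of the 10 genes, and each sequence printed here was matched base for base to GRCm39. *Axin1* and *Apcdd1* were not matched. In the 250 bases before the start, CTTTGA on either strand was present in 1 of the 14 windows and in 13.8% of the 32851 windows of the table. That window belongs to an internal start of *Lef1*, 45997 bases downstream of the first, and its matches, in capitals and read as TCAAAG on the strand of the gene, lie 180 and 120 bases before that start. The 3 windows below, all on the + strand, are chr3:130903696-130903918 before the first *Lef1* start, chr3:130949693-130949942 before the internal *Lef1* start, and chr11:108810925-108811168 before the *Axin2* start, the first and the last ending where the earliest GENCODE transcript begins.
Lef1, first start: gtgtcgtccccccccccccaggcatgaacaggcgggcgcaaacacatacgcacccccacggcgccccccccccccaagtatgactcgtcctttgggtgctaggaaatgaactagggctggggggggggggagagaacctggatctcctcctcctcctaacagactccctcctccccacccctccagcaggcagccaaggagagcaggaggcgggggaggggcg
Lef1, internal start: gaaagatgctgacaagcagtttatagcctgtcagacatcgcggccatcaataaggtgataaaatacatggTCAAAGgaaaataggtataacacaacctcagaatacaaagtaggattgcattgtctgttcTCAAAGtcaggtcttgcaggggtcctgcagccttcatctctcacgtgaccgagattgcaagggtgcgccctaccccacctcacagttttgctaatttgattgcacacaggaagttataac
Axin2: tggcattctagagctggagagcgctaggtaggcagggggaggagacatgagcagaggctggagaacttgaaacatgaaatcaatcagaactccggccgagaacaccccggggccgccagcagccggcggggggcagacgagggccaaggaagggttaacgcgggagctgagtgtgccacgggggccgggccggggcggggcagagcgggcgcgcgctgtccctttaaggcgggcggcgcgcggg
The letters TGACG, found in sites for the cAMP-responsive factor CREB, were present before starts of *Ctnnb1* and *Tcf7l2* (2 of 14 windows, 17.8% of all), and CATTCC, bound by the YAP partners of the TEAD family, was present in none (12.6% of all). A match describes the letters of a window and not a bound site. The internal *Lef1* window lies within introns of 13 of the 15 *Lef1* transcripts of the GENCODE annotation and within no exon, and no annotated transcript starts within 100 bases of that start. Counts were made per gene, so RNA from the 2 starts cannot be told apart.

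At baseline the largest differences among these genes were between the cell lines and concerned DNA-binding partners of beta-catenin. With vehicle, *Lef1* was 10.9-fold lower and *Tcf7l1* 3.33-fold lower in the Y428F line than in the WT line, and *Ctnnb1* itself was 1.15-fold lower (n = 3 per group). With PTH, *Axin1* rose in both lines, 1.17-fold in WT and 1.18-fold in Y428F cells, and no other of the 10 genes passed the test for PTH. The feedback genes *Axin2*, *Nkd1* and *Nkd2* were next to undetected, each with a total of 2 counts over the 12 libraries. In bulk RNA, fewer cells that express a gene and less RNA per cell cannot be told apart.

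Expression is given in CPM, edgeR's counts scaled by the TMM-adjusted library totals. Before this scaling the totals ranged from 17127897 to 19057319 counts. A gene was called when its adjusted p was under 0.05. Unless an alternative analysis is named, adjusted p-values are by edgeR's quasi-likelihood method. They were corrected after Benjamini and Hochberg for the 17691 genes with 10 or more counts in all. Of the 10 genes, 7 passed this filter. Between the lines with vehicle, 3 of these 7 were called lower and 0 higher, whereas over all genes tested 22.7% were called lower and 22.4% higher (45.1% together). With PTH the same 3 genes were called lower, against 23.0% of all genes lower and 22.8% higher (45.7% together). For PTH in WT cells, 1 of the 7 genes was called higher and 0 lower, against 7.42% of all genes higher and 6.01% lower (13.4% together), and for PTH in Y428F cells 1 was higher and 0 lower, against 6.61% and 5.78% (12.4% together). Scaling by library totals in place of TMM moved the share of higher genes among all called for PTH from 55.2% to 37.3% in WT cells and from 53.4% to 38.1% in Y428F cells.

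**Figure D1:**
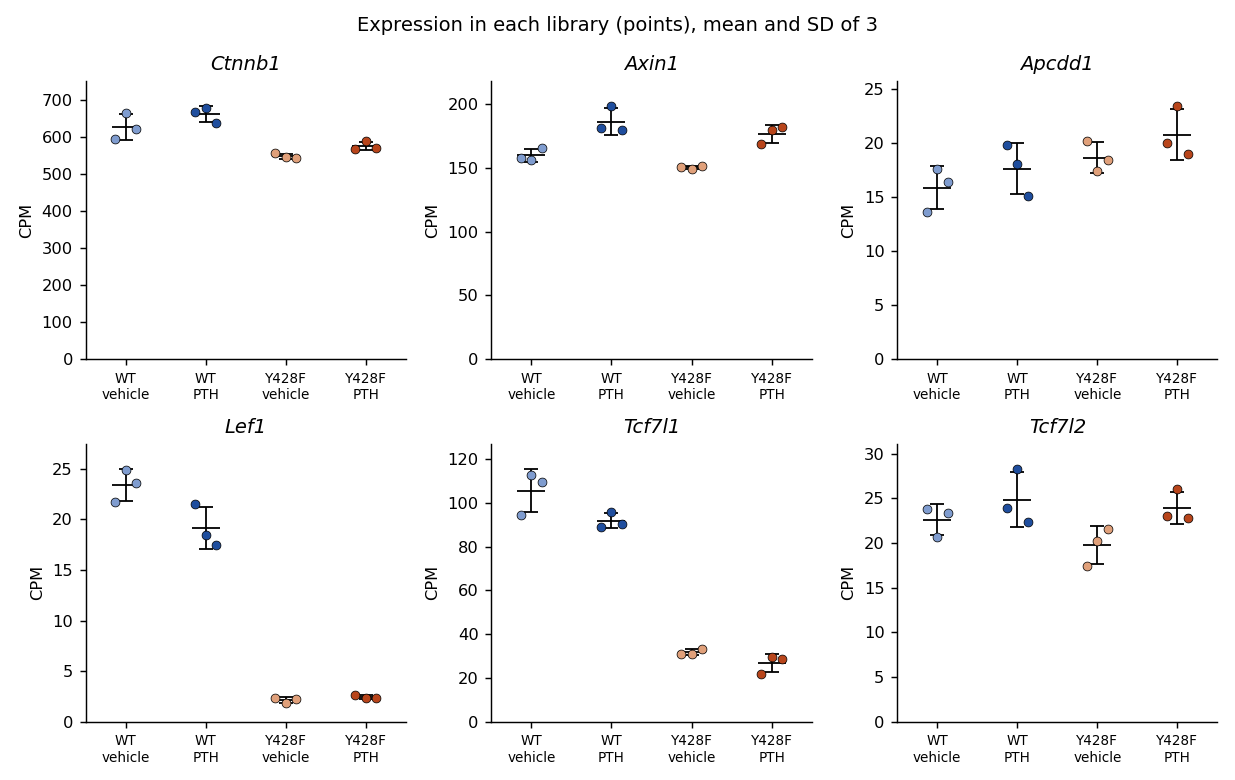
Expression (CPM, vertical axes from 0) of the 6 genes with the most counts in each of the 12 libraries (points), with the mean and SD of 3 per group. *Lef1* lies between 17.5 and 24.9 CPM in WT cells and between 1.82 and 2.66 CPM in Y428F cells, and *Axin1* is above its vehicle libraries in all PTH libraries of both lines.

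*Ctnnb1* (ENSMUSG00000006932.18, GRCm39 chromosome 9, 120757422 to 120789579, + strand) encodes beta-catenin and had the highest level per kb of transcript of the 10 genes. In WT cells it was measured at 594.5, 664.3 and 620.2 CPM with vehicle and at 667.8, 677.4 and 636.9 CPM with PTH. In Y428F cells the values were 555.5, 544.1 and 541.5 CPM with vehicle and 567.7, 587.1 and 569.2 CPM with PTH. Every Y428F library was below every WT library, while the WT libraries with and without PTH overlapped and the Y428F libraries with PTH all lay above those with vehicle. The log2 fold change between lines was -0.20 (SE 0.054, adjusted p = 0.00522) with vehicle and -0.20 (SE 0.054, adjusted p = 0.00409) with PTH. The 571 genes of chromosome 9 that averaged 4 CPM or more had a median log2 difference of -0.24 with vehicle, and the 26 of them within 2 Mb of *Ctnnb1* had a median of -0.28 (-1.29 to 0.24). *Ctnnb1* also shares 765 of its 8167 exon bases with *Ulk4* on the other strand, a gene with 22 to 62 counts per library. *Ulk4* was also lower in Y428F cells with vehicle (-0.97, adjusted p = 0.00354) and with PTH (-0.98, adjusted p = 0.00311). Its part in the difference of *Ctnnb1* was not tested. For *Ctnnb1*, PTH gave log2 changes of 0.077 (95% interval -0.035 to 0.19) in WT and 0.071 (-0.041 to 0.18) in Y428F cells. Neither was called (adjusted p = 0.417 and 0.473).

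*Axin1* (ENSMUSG00000024182.18, chromosome 17, 26350235 to 26414789, + strand) encodes the scaffold on which beta-catenin is phosphorylated for degradation. In WT cells it was measured at 157.6, 156.6 and 165.7 CPM with vehicle and at 181.1, 198.4 and 179.8 CPM with PTH. Y428F cells had 150.6, 149.1 and 151.7 CPM with vehicle and 168.7, 179.8 and 182.0 CPM with PTH. The PTH libraries were above the vehicle libraries without overlap in both lines. *Axin1* rose with PTH by a log2 fold change of 0.22 (SE 0.055, adjusted p = 0.00942) in WT cells and of 0.23 (SE 0.055, adjusted p = 0.00717) in Y428F cells. The difference between these responses was 0.012 on the log2 scale (95% interval -0.15 to 0.17, adjusted p = 1). Without WT PTH replicate 2 the change in WT cells was 0.17 and was no longer called (adjusted p = 0.0631). The lines themselves did not differ detectably in *Axin1*, with log2 differences of -0.088 with vehicle (95% interval -0.20 to 0.026) and -0.076 with PTH (-0.19 to 0.038).

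*Lef1* (ENSMUSG00000027985.15, chromosome 3, 130903919 to 131018005, + strand) encodes a TCF/LEF factor that activates transcription together with beta-catenin. In WT cells it was measured at 21.7, 24.9 and 23.6 CPM with vehicle and at 21.5, 18.4 and 17.5 CPM with PTH. The Y428F libraries held 2.35, 1.82 and 2.29 CPM with vehicle and 2.66, 2.36 and 2.37 CPM with PTH, which correspond to 36 to 48 counts per library. The lines were far apart, and the 3 WT libraries with PTH were below the 3 with vehicle by a narrow margin. *Lef1* was lower in Y428F cells by a log2 fold change of -3.44 (SE 0.13, adjusted p = 1.77e-14) with vehicle and of -2.95 (SE 0.13, adjusted p = 1.95e-13) with PTH. With vehicle, the 16 genes within 2 Mb of *Lef1* that had at least 4 CPM on average differed by a median of -0.082 (range -1.75 to 0.71), and the 529 such genes of chromosome 3 by -0.17.

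The change of *Lef1* with PTH in WT cells was -0.29 (SE 0.099, 95% interval -0.50 to -0.083) and was not called (adjusted p = 0.0596). It was called in 4 of 20 alternative analyses, whose adjusted p ranged from 0.0238 to 0.218, among them the fits without WT vehicle replicate 1 (-0.33, adjusted p = 0.0467) and without WT PTH replicate 1 (-0.38, adjusted p = 0.0303). In Y428F cells the change was 0.20 (95% interval -0.17 to 0.56, adjusted p = 0.565). The responses of the lines differed by 0.49 on the log2 scale (SE 0.20, 95% interval 0.069 to 0.90), which was not called by edgeR's test after adjustment over all genes (adjusted p = 0.626, 0.487 to 0.855 over the alternatives). An antisense gene, *Lef1os1*, shares 1518 of the 9337 exon bases of *Lef1*, and whether the counting used strand is not given in the sources used here. *Lef1os1* was also lower in Y428F cells, with 25 to 36 counts per WT library and 3 to 10 per Y428F library with vehicle (log2 fold change -2.33, adjusted p = 0.000106), so reads from the antisense gene and from *Lef1* cannot be told apart in the shared bases.

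*Tcf7l1* (ENSMUSG00000055799.14, chromosome 6, 72603354 to 72766589, - strand) encodes a family member known mainly as a repressor of WNT targets. In WT cells it was measured at 94.3, 112.8 and 109.7 CPM with vehicle and at 89.2, 95.9 and 90.5 CPM with PTH. In Y428F cells the values were 31.2, 30.7 and 33.3 CPM with vehicle and 22.0, 29.4 and 28.7 CPM with PTH. No Y428F library reached the lowest WT library, and within Y428F cells the PTH libraries were all below the vehicle libraries, PTH replicate 1 by the most. *Tcf7l1* was lower in Y428F cells by a log2 fold change of -1.73 (SE 0.087, adjusted p = 1.49e-12) with vehicle and of -1.78 (SE 0.090, adjusted p = 1.37e-12) with PTH. The 30 genes within 2 Mb, at the same limit of 4 CPM, differed between lines by a median of -0.23 (range -1.14 to 2.52) with vehicle. The 503 such genes of chromosome 6 had a median of -0.16. The changes with PTH were -0.20 in WT cells (95% interval -0.37 to -0.030, adjusted p = 0.118) and -0.25 in Y428F cells (-0.45 to -0.054, adjusted p = 0.0945), neither of them called. Each was called in 4 of 20 alternatives. Leaving out WT vehicle replicate 1 (-0.27, adjusted p = 0.0303) or Y428F PTH replicate 1 (-0.19, adjusted p = 0.0436) gave a call in WT cells, and leaving out Y428F PTH replicate 2 gave one in Y428F cells (-0.32, adjusted p = 0.0452).

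*Tcf7l2* (ENSMUSG00000024985.21, chromosome 19, 55730188 to 55922091, + strand) encodes a widely expressed family member. In WT cells it was measured at 23.9, 20.6 and 23.3 CPM with vehicle and at 23.9, 28.3 and 22.4 CPM with PTH. Y428F cells had 17.5, 20.2 and 21.6 CPM with vehicle and 23.0, 26.1 and 22.8 CPM with PTH. The groups overlapped except within Y428F cells, where the PTH libraries were higher. No comparison was called. The log2 change with PTH in Y428F cells was 0.28 (95% interval 0.062 to 0.49, adjusted p = 0.0909), which was called in 2 of 20 alternatives, and in WT cells it was 0.13 (-0.080 to 0.35, adjusted p = 0.469). The difference between the lines was -0.19 with vehicle (95% interval -0.41 to 0.021) and -0.052 with PTH (-0.26 to 0.16), and the latter changed sign when libraries were scaled by their totals.

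*Tcf7* (ENSMUSG00000000782.17, chromosome 11, 52143107 to 52174619, - strand) encodes the family member best known from T cells. It had between 3 and 16 counts per library, and WT vehicle replicate 3 held the highest value. At this depth no difference was detectable, and the 95% interval between lines with vehicle spanned more than 2 log2 units.

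**Figure D2:**
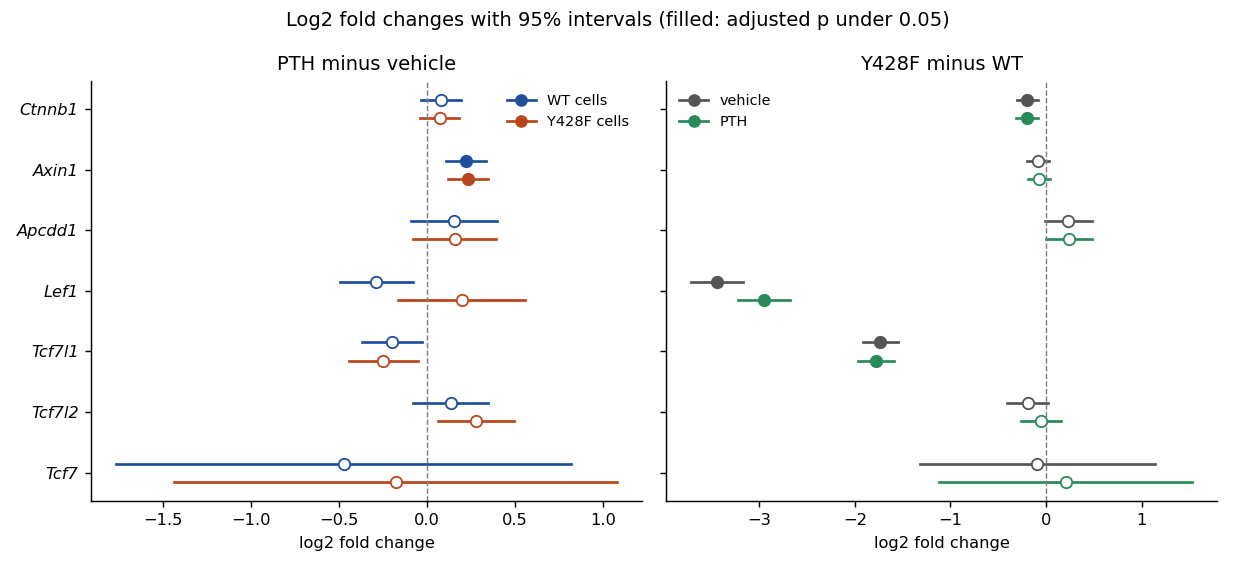
Log2 fold changes (horizontal axes) of the 7 tested genes for PTH minus vehicle in each line (left) and Y428F minus WT with vehicle or PTH (right), with 95% intervals; filled points have an adjusted p under 0.05. *Axin1* is filled in both lines on the left, and *Lef1*, *Tcf7l1* and *Ctnnb1* on the right, with *Lef1* at -3.44 and -2.95.

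Levels of the 4 TCF/LEF genes were set side by side after division by transcript length, as CPM per kb of the GENCODE canonical transcript. In WT cells with vehicle, *Tcf7l1* had 31.1 ± 2.91 CPM per kb (SD, n = 3), *Lef1* 9.18 ± 0.614, *Tcf7l2* 5.47 ± 0.417 and *Tcf7* 0.135 ± 0.0971. In Y428F cells with vehicle the order was *Tcf7l1* at 9.33 ± 0.405 CPM per kb, *Tcf7l2* at 4.78 ± 0.511, *Lef1* at 0.846 ± 0.115 and *Tcf7* at 0.126 ± 0.0573. *Lef1* thus stood above *Tcf7l2* in every WT library and below it in every Y428F library. The order of this pair in WT cells depends on the length used, since per kb of all annotated exons *Lef1* and *Tcf7l2* were at 2.51 and 2.52. As background, the other expressed genes had 172 (*Ctnnb1*), 42.3 (*Axin1*) and 1.46 (*Apcdd1*) CPM per kb in WT cells with vehicle.

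The sum of the 4 genes was 45.8 ± 3.24 CPM per kb in WT cells with vehicle and 40.6 ± 1.65 with PTH, and 15.1 ± 0.876 in Y428F cells with vehicle and 14.7 ± 1.40 with PTH (SD, n = 3). *Tcf7l1* made up the largest share in all 4 groups, with 67.7% and 66.5% in WT cells and 61.9% and 53.1% in Y428F cells with vehicle and PTH. With vehicle, *Lef1* made up 20.04% of the sum in WT cells but 5.62% in Y428F cells, and *Tcf7l2* 12.0% and 31.7%. With PTH the share of *Tcf7l2* was 14.8% in WT and 39.5% in Y428F cells. Sums and shares depend on the length used. Per kb of all annotated exons the sum with vehicle was 25.4 in WT libraries and 8.64 in those of Y428F, with *Lef1* at 9.87% and 2.68% and *Tcf7l2* at 10.0% and 25.5%. The shares follow from the levels given above and were not tested.

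**Figure D3:**
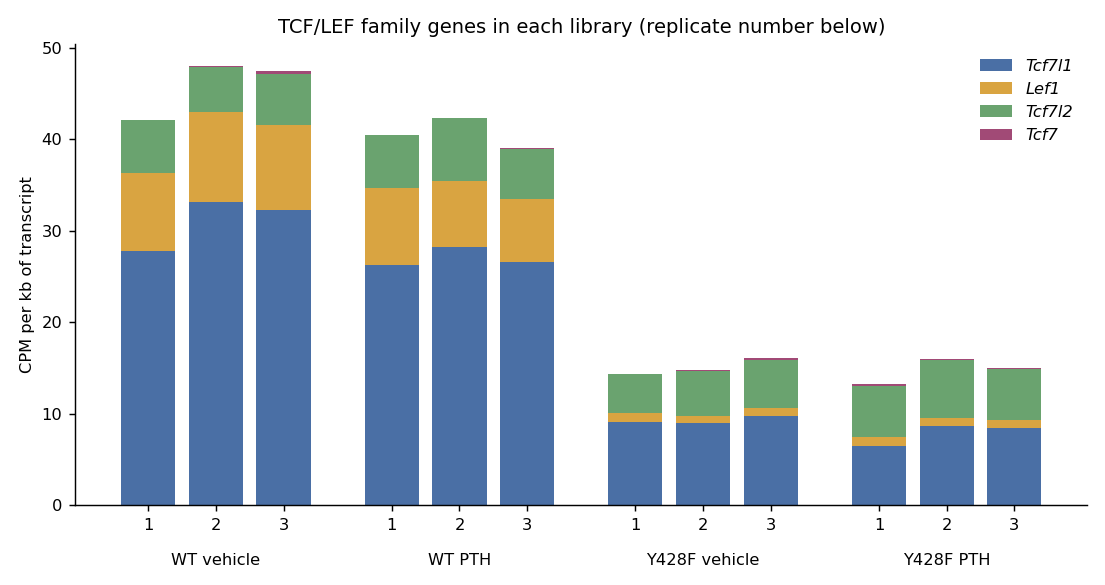
Stacked CPM per kb of canonical transcript (vertical axis from 0) of the 4 TCF/LEF genes in each of the 12 libraries, with the replicate number under each bar. The sum lies between 39.1 and 48.0 in WT libraries and between 13.2 and 16.1 in Y428F libraries, and the *Lef1* segment is thin in all Y428F libraries.

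Among the feedback genes, *Axin2* (ENSMUSG00000000142.16, chromosome 11, 108811169 to 108841609, + strand) encodes an AXIN scaffold that is widely used as a readout of WNT signaling. It had 1 count in WT vehicle replicate 1, 1 count in WT PTH replicate 1 and 0 counts in the other 10 libraries. *Nkd1* (ENSMUSG00000031661.13), which encodes an inhibitor that binds Dishevelled, had 1 count in WT vehicle replicate 3 and 1 in Y428F vehicle replicate 2. Its paralog *Nkd2* (ENSMUSG00000021567.16) had 2 counts in WT vehicle replicate 3 and none in the other libraries. A count of 0 allows up to 3 counts, or 0.152 to 0.185 CPM depending on the library, and this limit covers counting error only. No change of these 3 genes with PTH or between lines was detectable at this depth.

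*Apcdd1* (ENSMUSG00000071847.14, chromosome 18, 63055302 to 63094250, + strand), which encodes a membrane inhibitor of WNT signaling, had measurable expression, unlike the feedback genes *Axin2*, *Nkd1* and *Nkd2*. In WT cells it was measured at 13.6, 17.6 and 16.4 CPM with vehicle and at 19.8, 18.0 and 15.1 CPM with PTH. The Y428F libraries held 20.2, 17.4 and 18.5 CPM with vehicle and 20.02, 23.4 and 18.9 CPM with PTH. The groups overlapped in each comparison, and none was called. The log2 difference between lines was 0.23 with vehicle (95% interval -0.0083 to 0.48, adjusted p = 0.111) and 0.24 with PTH (-0.0031 to 0.48, adjusted p = 0.101). With library totals in place of TMM both were called (adjusted p = 0.0424 and 0.0313), and without WT PTH replicate 1 the latter was called (0.34, adjusted p = 0.0381). The changes with PTH were 0.15 in WT (-0.093 to 0.40) and 0.16 in Y428F cells (-0.081 to 0.39).

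Over the 7 tested genes the median log2 change with PTH was 0.077 in WT cells and 0.16 in Y428F cells, beside -0.019 and -0.0067 over all genes tested. Between lines it was -0.19 with vehicle and -0.076 with PTH, beside 0.012 and 0.019 over all genes. None of the 7 was called for the difference between the responses of the lines, a comparison in which 0.413% of all genes tested were called (73 genes) and 1247 had an unadjusted p under 0.05. Of the 7 genes, *Lef1* alone had an unadjusted p under that limit, and none was called for this difference by DESeq2. The comparisons share libraries, so the values of one are not independent of those of another.

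The rest of the pathway was followed with 4 lists of genes written from general knowledge. Of 18 regulators of the destruction complex, all tested, 1 was called higher and 1 lower with PTH in WT cells (7.42% and 6.01% of all genes). *Apc*, a core scaffold, rose from 112 ± 6.53 to 142 ± 9.10 CPM (SD, n = 3, log2 fold change 0.34, adjusted p = 0.00458), and its relative *Apc2* fell from 13.9 ± 1.18 to 11.0 ± 0.206 CPM (-0.33, adjusted p = 0.0432). The call of *Apc2* was lost with DESeq2 (adjusted p = 0.0692), with no filter on low counts (0.0704), in the 6 WT libraries alone (0.0538) and under the stricter limits of adjusted p under 0.01 and log2 beyond 0.3. In Y428F cells 0 were higher and 3 lower (6.61% and 5.78% of all genes). These were *Apc2* (-0.51, adjusted p = 0.00678), *Amer1*, which encodes a partner of APC at the membrane (-0.37, adjusted p = 0.00178), and *Dvl1*, which encodes a Dishevelled protein that relays the WNT signal (-0.26, adjusted p = 0.00538, not called under the stricter limits). The change of *Apc* in Y428F cells was 0.11 (adjusted p = 0.436), and those of *Amer1* and *Dvl1* in WT cells were -0.18 and -0.17 (adjusted p = 0.106 and 0.0535). *Dvl1* was called lower in WT cells with DESeq2 (adjusted p = 0.0331), edgeR's filterByExpr (0.0346) and library totals (0.0127). It was also called without WT PTH replicate 3 (0.0438) or Y428F PTH replicate 1 (0.0354). *Amer1* was called lower in WT cells with library totals (0.0399), and *Apc* higher in Y428F cells without Y428F PTH replicate 1 (0.0478). Between lines with vehicle 2 were higher and 6 lower in Y428F cells, beside 45.1% of all genes called in either direction. The smallest adjusted p-values were those of *Apc2* (-0.75, adjusted p = 7.69e-06) and *Csnk1a1*, the kinase that primes beta-catenin for degradation (-0.33, adjusted p = 1.20e-05). With PTH 2 were higher and 7 lower, beside 45.7% of all genes, and *Apc2* and *Csnk1a1* again had the smallest adjusted p-values (-0.93 and -0.34). The median log2 value of the list was 0.024 and 0.027 for PTH in WT and Y428F cells and -0.044 and -0.067 between lines with vehicle and PTH.

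Of 16 nuclear cofactors and inhibitors of the beta-catenin and TCF complex, all tested, 0 were called higher and 3 lower with PTH in WT cells (7.42% and 6.01% of all genes). *Bcl9*, which encodes a coactivator that binds beta-catenin, fell by 0.36 on the log2 scale in WT cells (adjusted p = 0.000551) and by 0.40 in Y428F cells (adjusted p = 0.000349). *Tbl1xr1*, which encodes a subunit of corepressor complexes that also binds beta-catenin, fell by 0.38 in WT cells (adjusted p = 0.000619) and by 0.26 in Y428F cells (adjusted p = 0.0211). The latter call of *Tbl1xr1* was lost under the stricter limits and without Y428F PTH replicate 1 (adjusted p = 0.0975), PTH replicate 3 (0.0799) or vehicle replicate 1 (0.121). In Y428F cells 1 was higher and 4 were lower (6.61% and 5.78% of all genes), and *Tle3*, which encodes a Groucho corepressor, fell from 134 ± 2.36 to 106 ± 6.14 CPM (-0.34, adjusted p = 0.00175), with a change of -0.058 in WT cells (adjusted p = 0.663). The 1 gene that rose there was another corepressor gene of this family, *Tle4*, named after its values were seen (1.94 ± 0.106 to 4.20 ± 0.685 CPM, log2 fold change 1.12, adjusted p = 0.00585). Its change in WT cells was 0.73 (95% interval 0.026 to 1.44, adjusted p = 0.179). The difference between the responses, 0.38, was not called (adjusted p = 0.920). *Tle2*, also of this family, was called lower in WT (-0.47, adjusted p = 0.00616) and in Y428F cells (-0.44, adjusted p = 0.0166). The former call was lost without WT vehicle replicate 2 (adjusted p = 0.0502). The latter was lost under the stricter limits and without Y428F PTH replicate 1 (adjusted p = 0.0993) or vehicle replicate 2 (0.0863). Between lines 4 were higher and 7 lower in Y428F cells with vehicle, and 4 and 7 with PTH, beside 45.1% and 45.7% of all genes called in either direction. *Tbl1xr1* was lower with vehicle (-0.76, adjusted p = 1.32e-08) and with PTH (-0.64, adjusted p = 2.63e-07). *Bcl9* was likewise lower with vehicle (-0.55, adjusted p = 3.73e-07) and with PTH (-0.59, adjusted p = 2.38e-07). *Pygo1*, whose protein joins the complex through BCL9, had 61 to 80 counts per WT library and 0 to 3 per Y428F library with vehicle (adjusted p = 1.37e-08), and 54 to 79 against 0 to 2 with PTH (adjusted p = 9.53e-09). The median log2 value of the list was -0.059 and -0.12 for PTH in WT and Y428F cells and -0.032 and -0.052 between lines with vehicle and PTH.

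Of 13 cadherins and catenins, most of them partners of beta-catenin at cell contacts, 9 were tested. With PTH, 1 was called higher and 0 lower in WT cells, and in Y428F cells 0 were called in either direction, beside 13.4% and 12.4% of all genes. *Ctnnd1*, which encodes the p120 catenin, rose in WT cells from 294 ± 22.9 to 397 ± 22.8 CPM (SD, n = 3, log2 fold change 0.43, adjusted p = 0.000208), and its change in Y428F cells was 0.090 (adjusted p = 0.482). The difference between these responses was -0.34 and was not called (adjusted p = 0.219). It was called with no filter on low counts (-0.34, adjusted p = 0.0179). Between lines 4 were higher and 3 lower in Y428F cells with vehicle, and 3 and 4 with PTH, beside 45.1% and 45.7% of all genes. *Cdh11*, the cadherin gene typical of osteoblasts and mesenchymal cells, was at 118 ± 8.54 CPM in vehicle-treated WT cells and at 2.08 ± 0.307 CPM in vehicle-treated Y428F cells (log2 fold change -5.82, adjusted p = 7.02e-20). It was also lower in Y428F cells with PTH (-5.57, adjusted p = 1.41e-19). *Cdh5*, the endothelial cadherin gene, was higher in Y428F cells with vehicle, at 7.95 ± 0.865 against 0.810 ± 0.282 CPM (3.28, adjusted p = 1.13e-10), and with PTH (3.48, adjusted p = 3.28e-10). *Cdh13*, which encodes a cadherin anchored in the membrane without a cytoplasmic tail for beta-catenin, was among the lower genes (-0.66 with vehicle, adjusted p = 4.22e-08, and -0.68 with PTH, adjusted p = 2.52e-08). *Cdh2*, the N-cadherin gene, named after its values were seen, had 0 to 1 counts per WT library and 57 to 63 per Y428F library with vehicle. The median log2 value of the list was -0.016 and 0.020 for PTH in WT and Y428F cells and 0.14 and -0.091 between lines with vehicle and PTH.

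Of 18 other known WNT targets, 12 were tested, and *Notum*, *Sp5*, *Dkk1*, *Ascl2*, *Cdx1* and *Fgf18* had too few counts. With PTH 3 were called higher and 1 lower in WT cells, and 4 higher and 1 lower in Y428F cells. Of all genes, 7.42% were higher and 6.01% lower in the former comparison and 6.61% and 5.78% in the latter. *Tnfrsf11b*, which encodes osteoprotegerin, the decoy receptor that restrains osteoclast formation, rose from 5.27 ± 1.14 to 12.4 ± 1.54 CPM in WT cells (SD, n = 3, log2 fold change 1.23, adjusted p = 5.33e-06) and from 12.9 ± 1.75 to 26.6 ± 1.31 CPM in Y428F cells (1.04, adjusted p = 7.33e-06). *Myc* rose in WT cells (0.64, adjusted p = 9.24e-06) and in Y428F cells (0.25, adjusted p = 0.0348). The latter call of *Myc* was lost under the stricter limits, with library totals (adjusted p = 0.0644) and without Y428F PTH replicate 2 (0.175), vehicle replicate 1 (0.0968) or vehicle replicate 2 (0.161). *Ccn4*, a matricellular protein gene first described as a WNT target, rose in Y428F cells (0.43, adjusted p = 0.00226), and its change in WT cells was 0.19 (adjusted p = 0.235). The difference in response was not called for *Myc* (-0.39, adjusted p = 0.188) or *Ccn4* (0.24, adjusted p = 0.782). That of *Myc* was called with no filter on low counts (-0.39, adjusted p = 0.0191) and without Y428F PTH replicate 2 (-0.48, adjusted p = 0.0356). The 1 lower gene in each line was *Ccnd1*. It changed by -0.21 in WT (adjusted p = 0.026) and -0.22 in Y428F cells (adjusted p = 0.0196). Both calls were lost under the stricter limits, and that in WT cells also in the 6 WT libraries alone (adjusted p = 0.0692). The call in WT cells was also lost without WT vehicle replicate 2 or 3 or WT PTH replicate 1 or 3. That in Y428F cells was lost without Y428F vehicle replicate 1 or PTH replicate 1 or 3. Many genes of this list also answer to other pathways. Between lines 6 were higher and 4 lower in Y428F cells with vehicle, and 5 and 4 with PTH, beside 45.1% and 45.7% of all genes. *Ccnd1*, which encodes cyclin D1, was at 515 ± 12.8 CPM in Y428F and 270 ± 11.1 CPM in WT cells with vehicle (0.93, adjusted p = 9.45e-11), and *Ccn4* at 73.3 ± 0.975 against 33.5 ± 4.76 CPM (1.13, adjusted p = 3.10e-09). With PTH the differences were 0.92 for *Ccnd1* and 1.37 for *Ccn4*. *Twist1* (55.3 against 82.4 CPM) and *Prickle1* (7.4 against 12.6 CPM) were among the 4 lower genes with vehicle. The others were *Bambi* (-0.84, adjusted p = 0.0283) and *Wif1* (-3.40, adjusted p = 0.0169), the latter with 0 to 5 counts per vehicle library. *Bambi* was not called with DESeq2 (adjusted p = 0.0608). Neither was called under the stricter limits or without Y428F vehicle replicate 1 or 2. The median log2 value of the list was 0.10 and 0.21 for PTH in WT and Y428F cells and 0.55 and 0.37 between lines with vehicle and PTH.

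No gene of the 4 lists was called for the difference between the responses of the lines in the main fit. Leaving out Y428F PTH replicate 2 gave 1 call among the other WNT targets, *Myc*. Applying no filter on low counts gave 1 among these, again *Myc*, and 1 among the cadherins and catenins, *Ctnnd1*. For PTH in WT cells, leaving out PTH replicate 3 raised the calls to 5 of the destruction complex list, 5 of the nuclear cofactors and 2 of the cadherins and catenins. *Apc2* was not called in that fit (adjusted p = 0.0799). Leaving out any of 8 libraries (WT vehicle replicates 2 and 3, WT PTH replicates 1 and 2, Y428F vehicle replicates 1, 2 and 3, and Y428F PTH replicate 3) lowered the count of the destruction complex list from 2 to 1, with *Apc2* the call lost. It was also 1 with no filter, in the 6 WT libraries alone and under the stricter limits, and 4 with library totals. For PTH in Y428F cells, the nuclear cofactors had 3 calls without PTH replicate 1 and the other WNT targets 3 without vehicle replicate 1, and between lines with vehicle the destruction complex list had 5 calls without Y428F vehicle replicate 3. The stricter limits left 3 calls of the nuclear cofactors and 2 of the other WNT targets for PTH in Y428F cells, 3 of the destruction complex list and 7 of the nuclear cofactors between lines with vehicle, and 4 of the destruction complex list between lines with PTH. In the 6 Y428F libraries alone, 1 of the cadherins and catenins, *Cdh5*, was called lower with PTH (-0.44, adjusted p = 0.0314).

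**Figure D4:**
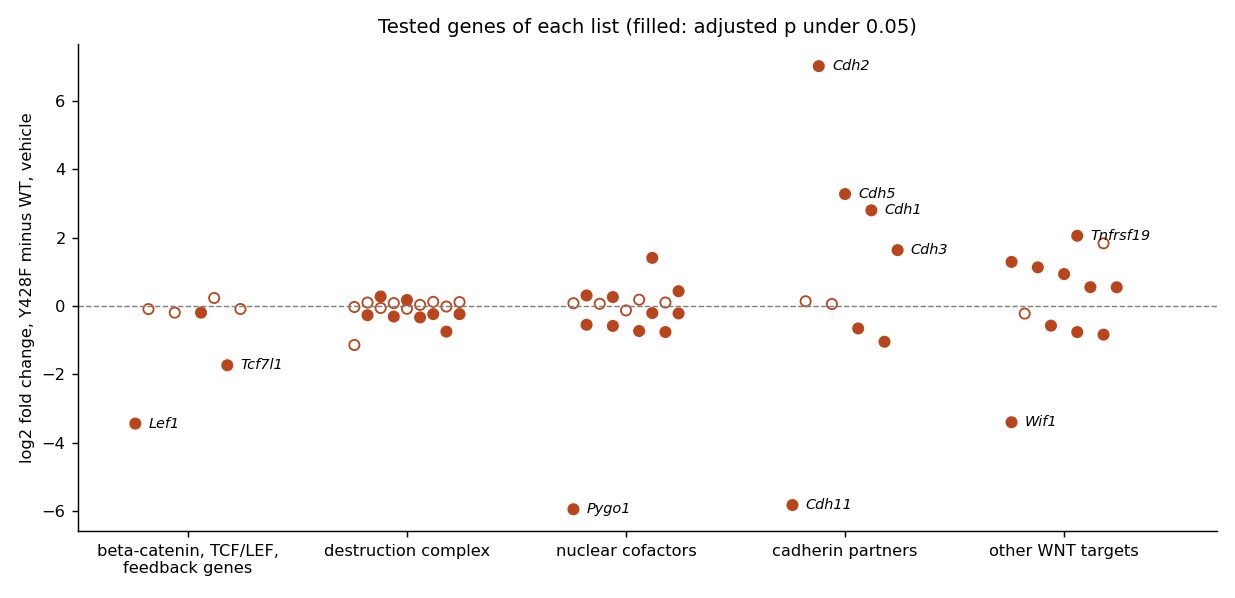
Log2 fold changes between Y428F and WT cells with vehicle (vertical axis) for the tested genes of the 5 gene groups (one point a gene); filled points have an adjusted p under 0.05, and points far from 0 carry the gene symbol. *Lef1* and *Tcf7l1* lie at -3.44 and -1.73, *Pygo1* and *Cdh11* lie lower still, and the positions of *Pygo1*, *Wif1*, *Cdh1*, *Cdh2* and *Lgr5* are estimates against groups with 0 to 3 counts per library.

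The cell type of the libraries was checked with markers. Of 11 stromal markers, 10 were tested, 2 were higher and 7 lower in Y428F cells with vehicle (22.4% and 22.7% of all genes), and *Thy1* was at 0 in all 12 libraries. Their summed level was 25190 to 28910 CPM in WT libraries and 15540 to 19520 CPM in Y428F libraries, with *Col1a2* the most abundant at 5787 to 13770 CPM, *Col3a1* lower in Y428F cells with vehicle (log2 fold change -2.04, adjusted p = 1.76e-12) and *Ly6a* higher (1.23, adjusted p = 2.37e-12). Markers of other cell types were low in all libraries, with higher sums in Y428F cells. The 7 haematopoietic markers summed to 0.615 to 1.92 CPM in WT and 3.03 to 4.30 CPM in Y428F libraries. *Ptprc* was the most abundant except in WT PTH replicate 3, where *Cd68* was, and *Cd3e* was at 0 in all libraries. The 5 endothelial markers summed to 0.910 to 1.77 and 6.12 to 9.94 CPM. *Cdh5* was the most abundant except in WT PTH replicate 3, where *Tek* was, with *Emcn* at 0 or 1 count and *Pecam1* at 6 counts or fewer. The 5 epithelial markers summed to 0.483 to 1.19 and 2.95 to 4.90 CPM. *Krt8* was the most abundant except in WT PTH replicate 2, where *Krt19* was, and *Epcam* was at 0 in all libraries. With vehicle, 1 haematopoietic, 1 endothelial and 2 epithelial markers were called higher in Y428F cells and none lower, beside the same shares of all genes. With PTH, 1 stromal marker was called higher and 2 lower in each line (13.4% and 12.4% of all genes called). *Pdgfra* fell in WT (-0.60, adjusted p = 0.000112) and Y428F cells (-0.73, adjusted p = 7.17e-05). The other lower marker was *Pdgfrb* in WT (-0.27, adjusted p = 0.0496) and *Col1a1* in Y428F cells (-0.33, adjusted p = 0.0218). That call of *Pdgfrb* was lost in the 6 WT libraries alone (adjusted p = 0.0858), under the stricter limits and without most single libraries. That of *Col1a1* was lost under the stricter limits and without Y428F PTH replicate 1 (adjusted p = 0.124) or vehicle replicate 1 (0.115). *Vim* rose in both (0.27 and 0.22, adjusted p = 0.00261 and 0.0128). In Y428F cells the stromal calls were 5 with library totals, 6 with no filter on low counts and 1 under the stricter limits. The part of these markers in the differences of *Lef1*, *Tcf7l1* and *Ctnnb1* between lines was not tested.

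Genes of the study's own question were also read. *Pth1r*, the receptor gene, had 0 to 10 counts per library, so no difference was detectable at this depth. *Yap1* rose with PTH in WT cells (log2 fold change 0.35, adjusted p = 0.000105) and in Y428F cells (0.22, adjusted p = 0.00739), and its level in Y428F cells was below that in WT cells with vehicle (-0.37, adjusted p = 7.70e-06) and with PTH (-0.49, adjusted p = 1.35e-07). Whether reads of the introduced YAP were counted under *Yap1* was not tested.

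Genes with the most similar profile were found by the Pearson correlation of log2 CPM over the 12 libraries, among 10165 genes that averaged 5 CPM or more. The points share libraries and fall into 4 groups, so a high correlation mostly restates group differences. *Lef1* was most like *Cyp1b1* and *Usp18* (both r = 0.996), and *Tcf7l1* most like *Angptl2* and *Loxl3* (both r = 0.998). *Ctnnb1* was most like *Btbd7* (r = 0.980) and *Glyr1* (r = 0.976), and *Axin1* most like *Cpeb2* (r = 0.977) and *Senp5* (r = 0.975). The likeness was lower for *Apcdd1*, with *Sf3a1* (r = 0.920) and *Ewsr1* (r = 0.907), and for *Tcf7l2*, with *Dync1li1* (r = 0.893) and *Rnf111* (r = 0.871).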

How the data were processed

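Per the labels and methods, total RNA of W-20 cells was sequenced in bulk, and the authors mapped the reads with STAR 2.7.10b to GRCm39 with the GENCODE vM31 basic annotation. They deposited RSEM expected counts per gene, which are estimated counts not scaled for library size or gene length. Here these values were rounded, and edgeR 4.0.16 (TMM, quasi-likelihood) was run under R 4.3.3, with 4 group means over all 12 libraries, genes with at least 10 counts in total, and Benjamini-Hochberg adjustment over 17691 genes. Standard errors were derived from the F statistic, and intervals are at 95%. Positions and lengths came from GENCODE vM39, to which 56236 of the 56980 genes were matched.

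The 10 genes, the lists and the tests were chosen with earlier results of these data known. The genes named were the 10 members, the 2 genes with the smallest adjusted p among those called in each list and comparison, the 2 genes most like each member that averaged 1 CPM or more, and *Pth1r* and *Yap1*. Other genes were named for their overlap with a member (*Lef1os1*, *Ulk4*), as cell type markers, or for having few or no counts. Those named after their values were seen were *Tle2*, *Tle4*, *Cdh1*, *Cdh2*, *Cdh13*, *Lgr5*, *Wif1*, *Bambi*, *Prickle1* and *Twist1*. The code was tested on simulated data. Pairs of libraries within a group were further apart than sampling noise (chi-square divided by its degrees of freedom, 2.94 to 15.2). Alternatives were DESeq2 1.42.0, other scalings, other filters, a replicate block, stricter limits, fits of each line alone and each library left out in turn.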

Additional observations from a re-analysis of the deposited data

How the results depend on the processing

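The lower levels of *Lef1* and *Tcf7l1* in Y428F cells were called in all 19 alternatives with both lines, with vehicle and with PTH, and that of *Ctnnb1* in all but the stricter limits (adjusted p under 0.01 and log2 beyond 0.3), where 2 genes were called in place of 3. The number of the 10 genes called for PTH was less stable. In WT cells (1 called) it was 3 with library totals, 2 with no filter, 2 with edgeR's filterByExpr, 0 under the stricter limits, and 0 to 3 with 1 library left out (0 without WT PTH replicate 2, 3 without WT vehicle replicate 1, and 2 without WT PTH replicate 1 or Y428F PTH replicate 1). In Y428F cells (1 called) it was 2 with library totals, 3 with no filter, 0 under the stricter limits, 2 in the 6 Y428F libraries alone, and 1 to 2 with 1 library left out (2 without PTH replicate 2). None of the 10 genes was called for the difference in response under these alternatives.

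No pairing of the libraries by replicate number was detected, and with 3 libraries per group a weak pairing could be missed. Deviations of same-numbered libraries correlated at 0.0248 on average over 18 pairs (-0.185 to 0.382), and 4 of 12 libraries correlated best with their own number. With the replicate block, 2 of the 10 genes were called for PTH in Y428F cells, *Axin1* and *Tcf7l1*, and no other call among the 10 genes changed.

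Directions turned only for values that were not called. Scaling by library totals turned *Tcf7l2* between lines with PTH to 0.016 and the difference in response of *Ctnnb1* to 0.0058. With 1 library left out, *Tcf7* ranged from -1.13 to 0.29 for PTH in WT cells, from -0.49 to 0.13 for PTH in Y428F cells, from -0.40 to 0.68 between lines with vehicle, from -0.090 to 0.86 with PTH, and from -0.46 to 0.95 for the difference in response. *Tcf7l2* between lines with PTH ranged from -0.13 to 0.058. For the difference in response, *Ctnnb1* ranged from -0.057 to 0.021, *Axin1* from -0.016 to 0.065, *Tcf7l1* from -0.13 to 0.066 and *Apcdd1* from -0.098 to 0.10. The cause of these changes was not tested. With 3 to 16 counts per library, depth limits what can be said of *Tcf7*.

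Among all genes, the stricter limits gave 1073 in place of 2375 calls for PTH in WT cells and 942 in place of 2192 in Y428F cells, where leaving out Y428F vehicle replicate 1 gave 1435. For the difference in response the 73 calls became 124 with DESeq2, 216 with no filter, 22 under the stricter limits and 24 to 89 with 1 library left out.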
